A study of Mus musculus with 8 samples.

Results

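The transcripts described are those of 7 nuclear repressors: the zinc-finger factors Myt1, Myt1l, St18, Insm1 and Insm2, the corepressor Runx1t1 and the repressor Rest. They were picked by gene symbol, and all 7 had a row among the 23284 genes counted in each of 8 RNA-seq libraries made from the endocrine lineage of the mouse pancreas at embryonic day 17. The 4 KO libraries (replicates 8, 9, 17 and 24) were Neurod1floxed/floxed and the 4 Het libraries (replicates 6, 7, 13 and 19) were Neurod1floxed/wt. All 8 carried Neurog3Cre+ and RosaTomato+ on the strain given as C56BL/J, and the cells were sorted for Tomato. Cre ran from Neurog3, a gene of endocrine precursors, so recombination was limited to that lineage. The Het libraries lacked a single Neurod1 allele in the lineage, and no library without a floxed allele was compared.

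MYT1, MYT1L and ST18 form a family of transcription factors with zinc fingers of the CCHHC type, which bind a short AAGTT core and mostly repress genes of other fates. INSM1 and INSM2 carry a SNAG peptide at the amino end, and INSM1 uses it to recruit the LSD1-CoREST corepressor. RUNX1T1, also called ETO, binds no specific site itself and ties DNA-bound factors to histone deacetylases. REST silences neuronal genes in other tissues through the RE1 element with the same CoREST and Sin3 complexes, and neurons and islet endocrine cells are known for low REST. Myt1 and Insm1 are known targets of the precursor factor NEUROG3, INSM1 is a known target of NEUROD1, and mouse embryos without Insm1 form few mature islet cells.

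The libraries held 10.35 M to 16.1 M counted reads. The labels do not say that the libraries came from separate animals, so p-values measure the spread between these libraries. Neurod1, the targeted gene, stood at 2.55, 12.9, 22.2 and 21.5 CPM (counts per M reads of the scaled library size, where M is 10 to the power 6) in KO replicates 8, 9, 17 and 24, against 133, 138, 141 and 210 CPM in Het replicates 6, 7, 13 and 19. It was called lower in KO (log2 fold change −3.40, SE 0.52, adjusted p = 0.0165, edgeR quasi-likelihood test with Benjamini-Hochberg adjustment), a call lost without KO replicate 9 or any 1 Het library (adjusted p up to 0.0732). All 13 endocrine markers checked, from Chga and Isl1 to the hormones, had reads in every library. KO replicate 8 stood apart: 11 mesenchyme markers summed to 9793 CPM there, against 374 to 538 CPM in the other KO libraries and 267 to 1235 CPM in Het, and 7 leukocyte markers summed to 460 CPM, against at most 242 CPM elsewhere. Its 13 endocrine markers summed to 22810 CPM, against 27112 to 44737 CPM in the other KO libraries and 67129 to 93498 CPM in Het. Gcg, Ins1 and Ins2, which averaged 30589, 13307 and 13624 CPM in Het, weigh most in this sum. They were the 3 of the 13 that edgeR called lower in KO. The median log2 fold change of the 13 was −0.57, or −0.39 without KO replicate 8. Values that KO replicate 8 moved by more than 1.5 times are given without it as well for the 7 genes and for most other genes named. In bulk RNA, fewer cells of a type and less RNA per cell cannot be told apart.

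Of the 7 genes, 6 passed the filter on low counts, and none was called by edgeR at an adjusted p under 0.05, where 1.02% of the 14116 genes tested were. Without KO replicate 8 edgeR again called 0, where 1.99% of all genes were called. DESeq2 (3.75% of all genes called), limma-voom and limma-voom with quality weights called 0 of the 6 as well, and at an unadjusted p under 0.05 there were 2, Myt1l and Runx1t1, where 12.2% of all genes had one. Myt1, Myt1l, St18, Insm1 and Runx1t1 had negative log2 fold changes and Rest a positive one, so that 5 of 6 were below 0, as 46.6% of all genes were, with a median of −0.33 over the 6 (−0.18 without KO replicate 8) and of 0.03 over all genes tested. Each of the 5 with a negative value was lowest in KO replicate 8, as 20.8% of all genes were, and Rest was highest there, as 22.7% of all genes were. In the authors' deposited table, which gives 184 genes an adjusted p under 0.05, 0 of the 7 have one.

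**Figure D1:**
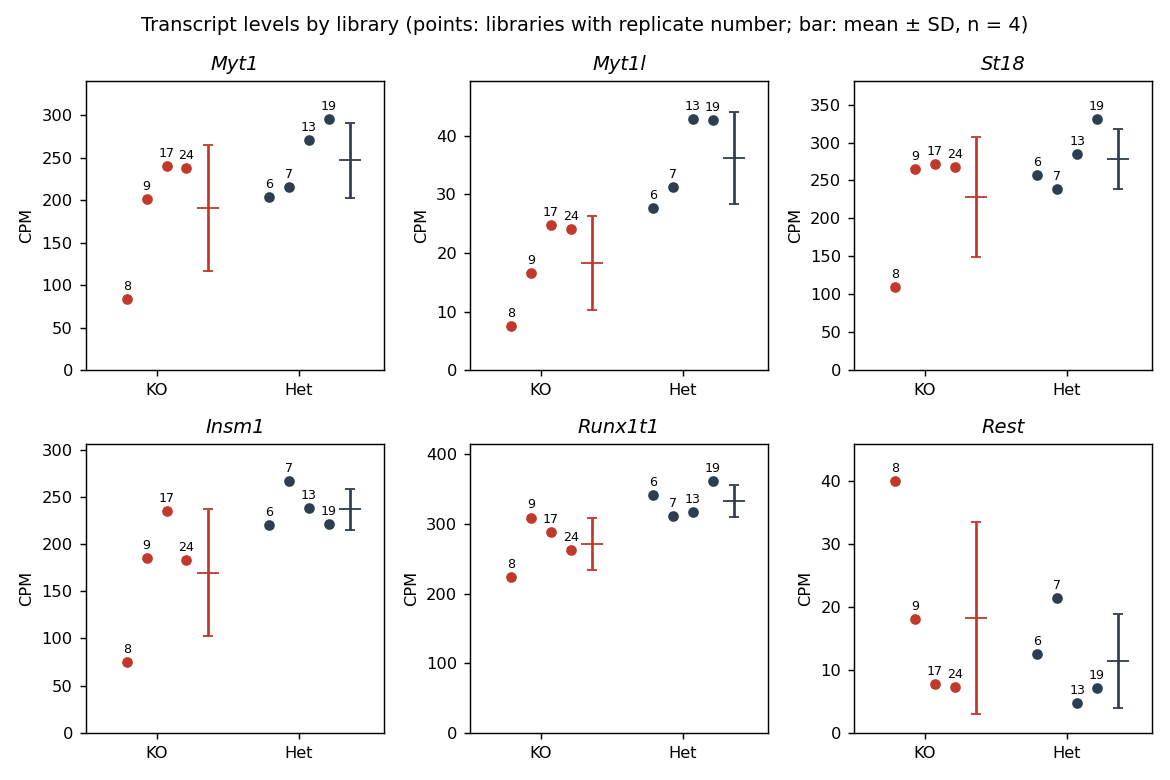
Normalised read counts in CPM of the 6 tested genes, with KO left and Het right in each panel. Points are libraries with their replicate numbers, and bars are the mean ± SD (n = 4). KO replicate 8 is the lowest point for Myt1, Myt1l, St18, Insm1 and Runx1t1 and the highest for Rest, and the KO points of Myt1l lie below the lowest Het point at 27.7 CPM.

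Per kilobase of the longest coding transcript, the genes fell into an upper and a lower set in both genotypes. Insm1 had the highest level, 54.7 ± 21.8 CPM per kb in KO and 76.3 ± 6.94 CPM per kb in Het (SD, n = 4 each). Runx1t1 followed with 44.5 ± 6.06 in KO and 54.7 ± 3.76 CPM per kb in Het, St18 with 38.8 ± 13.4 and 47.2 ± 6.80, and Myt1 with 34.6 ± 13.4 and 44.8 ± 7.98 CPM per kb, KO before Het in each pair. In Het the lowest Insm1 library, at 71.0 CPM per kb, was above the highest Runx1t1 library, at 59.3, while Runx1t1, St18 and Myt1 overlapped as neighbours. In KO these 4 overlapped. In every library the lower set lay below these 4 genes, and the gap was narrowest in KO replicate 8, with 15.1 CPM per kb of Myt1 and 5.71 of Rest. Myt1l had 2.54 ± 1.12 CPM per kb in KO and 5.03 ± 1.09 in Het, and Rest 2.61 ± 2.19 in KO and 1.63 ± 1.06 in Het. Myt1l and Rest overlapped in KO and did not in Het, where the lowest Myt1l library had 3.85 and the highest Rest library 3.05 CPM per kb. Insm2 was last, with at most 0.279 CPM per kb in any library.

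Myt1l, best known as a neuronal factor that keeps non-neuronal genes off, had the largest difference among the zinc-finger genes. It stood at 7.504, 16.7, 24.8 and 24.1 CPM in KO replicates 8, 9, 17 and 24, against 27.7, 31.3, 42.9 and 42.8 CPM in Het replicates 6, 7, 13 and 19. Every KO library was below every Het library. Of all genes tested, 8.03% did not overlap between the groups and 4.48% lay in this direction, and of the 6 genes here Myt1l and Runx1t1 did not overlap. The means were 18.3 ± 8.06 CPM in KO and 36.2 ± 7.83 CPM in Het (SD, n = 4 each), a log2 fold change of −0.99 (SE 0.34, 95% interval −1.75 to −0.22) that did not pass the test (adjusted p = 0.275, edgeR quasi-likelihood test). The authors' deposited table gives it a p of 0.00225 and an adjusted p of 0.138. Without KO replicate 8 the log2 fold change was −0.74 (adjusted p = 0.166). Myt1l was called lower with the mesenchyme markers as a covariate (−0.84, adjusted p = 0.0305) and in the libraries numbered 13 to 24 alone (−0.82, adjusted p = 0.0459, a choice made after seeing the data), and over all alternatives its adjusted p ran from 0.0305 to 0.645.

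A smaller difference in the same direction was seen relative to Myt1, a measure that no scaling of libraries moves. The log2 ratio of Myt1l to Myt1 reads was −3.47, −3.60, −3.28 and −3.31 in KO replicates 8, 9, 17 and 24, against −2.88, −2.78, −2.66 and −2.79 in Het replicates 6, 7, 13 and 19. The groups did not overlap, and KO replicate 8 lay among the other KO libraries. The mean log2 ratio was −3.41 in KO and −2.78 in Het. Of the other 14115 genes tested, 84, or 0.595%, had a ratio to Myt1 whose highest KO value was below its lowest Het value. Myt1 in KO replicate 8 was at 36.8% of the mean of the other KO libraries. Ratios to Myt1 are raised there for genes that fell less, so this share is not comparable to the 4.48% found for CPM. The ratios of St18 (0.28 ± 0.13 in KO and 0.18 ± 0.11 in Het), Insm1 (−0.17 ± 0.15 and −0.05 ± 0.32) and Runx1t1 (0.61 ± 0.58 and 0.45 ± 0.24) to Myt1, again KO before Het on the log2 scale (SD, n = 4 each), overlapped between the genotypes. Another gene, Gm20208, overlaps 33 bases of the longest Myt1l transcript in the GENCODE M21 annotation, and strand was not kept, so reads there cannot be assigned to either gene.

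**Figure D2:**
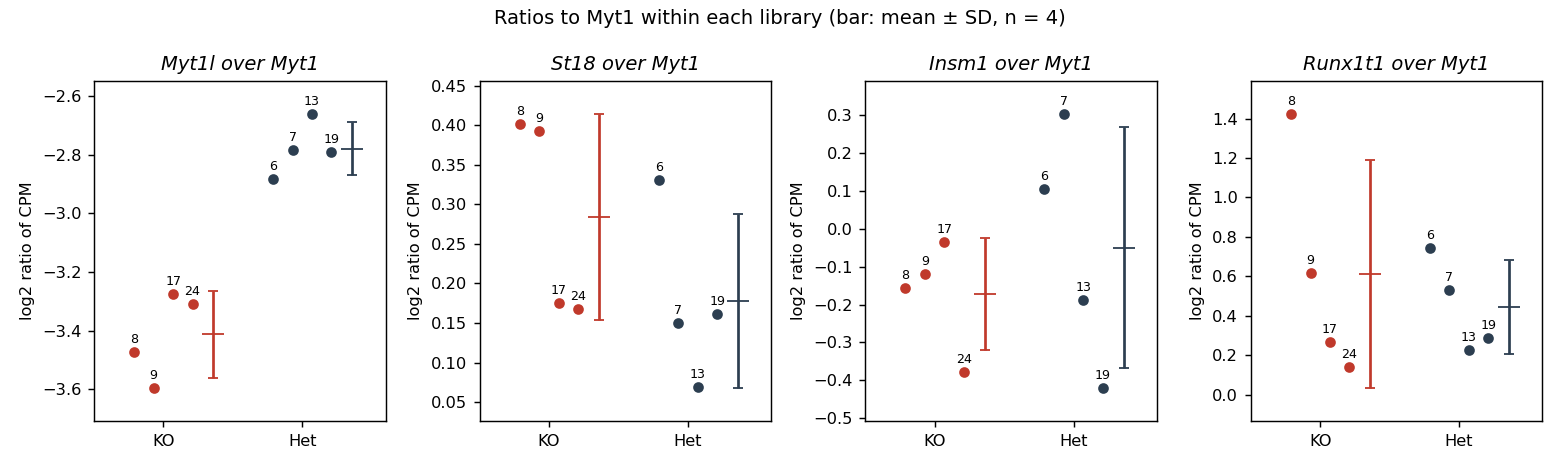
Log2 ratios of Myt1l, St18, Insm1 and Runx1t1 to Myt1 within each library, KO left and Het right, with replicate numbers and mean ± SD (n = 4). The axes do not start at 0. For Myt1l the KO libraries lie between −3.60 and −3.28 and the Het libraries between −2.88 and −2.66, and for the other 3 genes the groups overlap.

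The sequences before the annotated starts of Myt1 and Myt1l are shown because these are close relatives whose ratio differed between the genotypes, and because NEUROD1 binds E-boxes, CANNTG, with a preference for CAGATG. RefSeq promoters of GRCm38.p6, another build than the files, were matched by symbol for 3 of the 7 genes (Myt1, Myt1l and Insm2). The windows are the 250 bases before a start on the plus strand, 5′ to 3′, with E-boxes in capitals. Windows that overlap an annotated untranslated region are not shown, and of the others the first and second start of each gene are.
Myt1 first start, chr2:181763082-181763331: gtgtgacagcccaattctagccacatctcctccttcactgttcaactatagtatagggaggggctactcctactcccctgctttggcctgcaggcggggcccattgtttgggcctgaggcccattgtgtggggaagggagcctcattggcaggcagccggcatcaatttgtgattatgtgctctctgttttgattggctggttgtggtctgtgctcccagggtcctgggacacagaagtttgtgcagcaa
Myt1 second start, chr2:181766779-181767028: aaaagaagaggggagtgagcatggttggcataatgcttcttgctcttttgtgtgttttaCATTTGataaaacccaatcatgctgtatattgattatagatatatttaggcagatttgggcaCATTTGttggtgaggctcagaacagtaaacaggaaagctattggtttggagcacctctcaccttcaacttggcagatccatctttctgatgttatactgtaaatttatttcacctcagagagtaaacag
Myt1l first start, chr12:29528134-29528383: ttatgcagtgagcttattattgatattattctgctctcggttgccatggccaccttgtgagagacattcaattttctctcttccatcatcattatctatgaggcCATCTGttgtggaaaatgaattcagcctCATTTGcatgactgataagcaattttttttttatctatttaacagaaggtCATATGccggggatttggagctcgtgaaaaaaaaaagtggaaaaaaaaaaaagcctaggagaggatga
Myt1l second start, chr12:29533135-29533384: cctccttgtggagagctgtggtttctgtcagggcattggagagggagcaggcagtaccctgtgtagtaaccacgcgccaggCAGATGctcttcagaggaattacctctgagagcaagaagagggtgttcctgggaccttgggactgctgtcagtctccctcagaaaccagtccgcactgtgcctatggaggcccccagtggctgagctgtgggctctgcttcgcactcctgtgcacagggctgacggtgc

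The Myt1 windows held 0 and 2 E-boxes, both CATTTG, and no CAGATG on either strand. The first Myt1l window held 3 E-boxes, of which CATCTG, at position −146 from the start, is CAGATG on the other strand, and the second held CAGATG at −169. CANNTG on both strands was found in 66.2% of 32851 promoter windows of this length, and CAGATG, which is one of its forms, in 14.4%. The MYT core AAGTT, found in 35.3% of windows on either strand, occurred 1 time in each Myt1 window shown and in neither Myt1l window shown. The left part of RE1, TTCAGCACC, and the INSM1 core CAGGGGG, in 0.301% and 5.84% of windows, occurred in none of the 4. Of the windows not shown, the third of Myt1 held 1 E-box, CATGTG, and 1 AAGTT, and the third of Myt1l held neither. Starts 4 and 5 of Myt1l, whose windows overlap an untranslated region, held 1 and 3 E-boxes, of which 0 and 1 were CAGATG on either strand. They held 1 and 2 AAGTT. Over all windows CANNTG and AAGTT therefore occurred in both genes. CAGATG on either strand occurred at starts 1, 2 and 5 of Myt1l and in no Myt1 window. A match is a description of the letters and not a site of binding.

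Myt1, which is made in Neurog3-positive precursors and persists in islet cells, overlapped between the genotypes. It stood at 83.3, 201, 240 and 238 CPM in KO replicates 8, 9, 17 and 24, against 205, 216, 272 and 296 CPM in Het replicates 6, 7, 13 and 19. The KO mean of 191 ± 73.9 CPM and the Het mean of 247 ± 44.0 CPM (SD, n = 4 each) gave a log2 fold change of −0.37 (SE 0.29, 95% interval −1.02 to 0.27, adjusted p = 0.648, edgeR). KO replicate 8 was far below the rest, and without it the log2 fold change was −0.13 (adjusted p = 0.761). St18, also called MYT3, had 110, 265, 271 and 268 CPM in the same order of KO replicates, against 257, 239, 285 and 331 CPM in Het. KO replicates 9, 17 and 24 lay within the Het range, and KO replicate 8 far below it. Its log2 fold change was −0.28 (SE 0.26, 95% interval −0.86 to 0.29, adjusted p = 0.701, edgeR), or −0.06 (adjusted p = 0.879) without KO replicate 8. The root mean square difference between Myt1 and St18 in log2 CPM, each centred on its own mean over the 8 libraries, was 0.12, the smallest of the 15 pairs of tested genes. KO replicate 8 was the lowest library for both, and this difference was not computed without it.

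Insm1, the SNAG zinc-finger factor that islet and other neuroendocrine cells share, stood at 74.8, 186, 235 and 183 CPM in KO replicates 8, 9, 17 and 24. The Het replicates 6, 7, 13 and 19 held 220, 266, 239 and 221 CPM. KO replicate 17 was inside the Het range and the other 3 KO libraries were below it. The KO mean was 170 ± 67.5 CPM and the Het mean 237 ± 21.5 CPM (SD, n = 4 each), a log2 fold change of −0.48 (SE 0.28, 95% interval −1.10 to 0.14, adjusted p = 0.525, edgeR). Without KO replicate 8 it was −0.24 (adjusted p = 0.479). The authors' deposited table gives Insm1 a log2 fold change of −0.48 with a p of 0.0436 and an adjusted p of 0.777. Neurod1 in KO was at 9.48% of its Het mean, while Insm1 was at 71.7%, or 85.1% without KO replicate 8.

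Insm2, the paralog of Insm1, was at the limit of detection. It had 0, 5, 0 and 4 reads in KO replicates 8, 9, 17 and 24, against 0, 12, 5 and 1 in Het replicates 6, 7, 13 and 19, and was not tested. The counts of 0 allow up to 0.219 CPM in KO replicate 8, 0.226 CPM in KO replicate 17 and 0.232 CPM in Het replicate 6 (3 reads each, counting error only). No difference was detectable at this depth.

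Runx1t1 had the smallest SD of log2 CPM of the 6 over the 8 libraries, 0.22. It stood at 224, 309, 289 and 262 CPM in KO replicates 8, 9, 17 and 24, against 342, 311, 317 and 361 CPM in Het replicates 6, 7, 13 and 19. The groups did not overlap, by a margin of 309 CPM in KO replicate 9 to 311 CPM in Het replicate 7. The means of 271 ± 36.9 CPM in KO and 333 ± 22.9 CPM in Het (SD, n = 4 each) gave a log2 fold change of −0.30 (SE 0.13, 95% interval −0.59 to −0.00076, adjusted p = 0.410, edgeR). Without KO replicate 8 it was −0.23 (adjusted p = 0.455). KO replicate 8 held 78.0% of the mean of the other KO libraries for Runx1t1, against 36.8% for Myt1, 41.1% for St18, 37.2% for Insm1 and 34.3% for Myt1l.

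**Figure D3:**
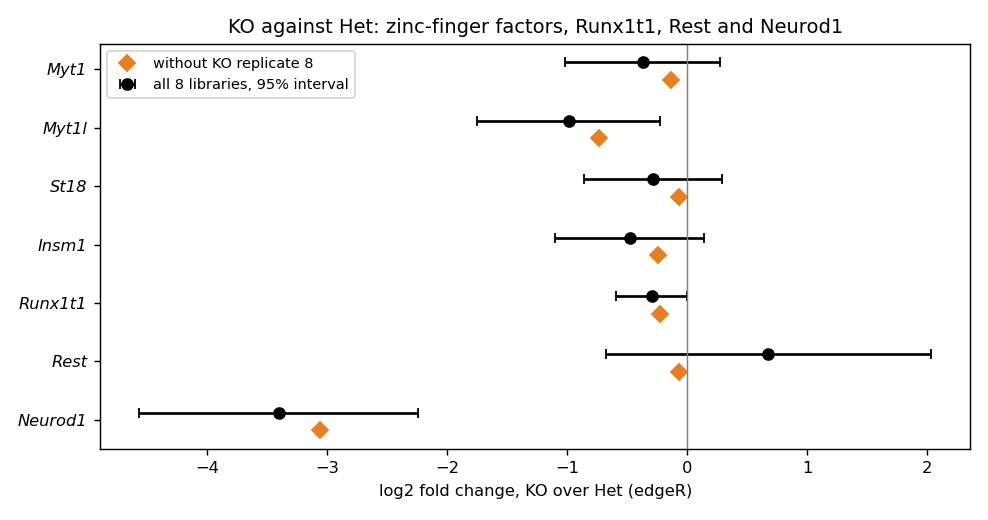
Log2 fold changes of KO over Het from edgeR for the 6 tested genes and Neurod1. Black points with bars are the values and 95% intervals from all 8 libraries, and orange diamonds the values without KO replicate 8. The interval of Neurod1 ends at −2.24, those of Myt1, St18, Insm1 and Rest include 0, and the diamond of Rest lies at −0.07, against 0.67 with all libraries.

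Rest was the 1 gene of the 6 with a higher mean in KO, and this rested on KO replicate 8. It stood at 40.0, 18.2, 7.77 and 7.28 CPM in KO replicates 8, 9, 17 and 24, against 12.6, 21.4, 4.68 and 7.10 CPM in Het replicates 6, 7, 13 and 19. The groups overlapped, with the highest value in KO replicate 8 and the next in Het replicate 7. The means of 18.3 ± 15.3 CPM in KO and 11.4 ± 7.41 CPM in Het (SD, n = 4 each) gave a log2 fold change of 0.67 (SE 0.61, 95% interval −0.68 to 2.03, adjusted p = 0.701, edgeR). Without KO replicate 8 the KO mean was 11.1 ± 6.16 CPM (SD, n = 3) and the log2 fold change −0.07 (adjusted p = 0.966), and with Y-linked genes as a covariate it was −0.03 (adjusted p = 0.993). The interval from all libraries is the widest of the 6 genes.

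Rest is set here beside the markers of non-endocrine cells. The 11 mesenchyme markers summed to 9793, 538, 374 and 505 CPM in KO replicates 8, 9, 17 and 24, against 914, 1235, 460 and 267 CPM in Het replicates 6, 7, 13 and 19. The 7 leukocyte markers summed to 460, 242, 14.3 and 44.3 CPM in the same KO libraries, against 28.2, 66.8, 21.4 and 19.3 CPM in Het. All 11 and all 7 had reads in every library. The 4 libraries with the most Rest were KO replicates 8 and 9 and Het replicates 6 and 7. These were also the 4 with the most mesenchyme reads and the 4 numbered 6 to 9, so library number and mesenchyme reads cannot be told apart here. KO replicate 9, at 538 CPM of mesenchyme markers, was little above KO replicate 24 at 505 CPM, while Rest stood at 18.2 and 7.28 CPM in them. The highest leukocyte sums were in KO replicates 8 and 9 and Het replicate 7. Acinar and duct markers did not follow Rest. The 10 acinar markers summed to 2064, 5840, 2636 and 1818 CPM in KO replicates 8, 9, 17 and 24, against 4558, 1665, 2931 and 1991 CPM in Het replicates 6, 7, 13 and 19. The 8 duct markers summed to 579 to 723 CPM in KO, with the lowest value in KO replicate 8, and to 525 to 669 CPM in Het. With the mesenchyme markers as a covariate the log2 fold change of Rest was 0.15 (SE 0.37, adjusted p = 0.876, edgeR). The 7 endothelial markers summed to 8.22 to 26.1 CPM in KO and 8.57 to 15.1 CPM in Het, with reads of 5 of the 7 in every library, and 10 neural and glial markers to 41.6 (KO replicate 8) to 69.2 CPM in KO and 47.9 to 77.1 CPM in Het, with 7 of the 10 in every library. With the acinar markers as a covariate the log2 fold change of Rest was 0.71 (SE 0.65, adjusted p = 0.727, edgeR). The mesenchyme markers were highest in KO replicate 8, and leaving out that library alone gave −0.07. Mesenchyme reads and the other traits of KO replicate 8 therefore cannot be told apart by these fits. The part of any of these marker lists in the level of Rest was not tested.

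**Figure D4:**
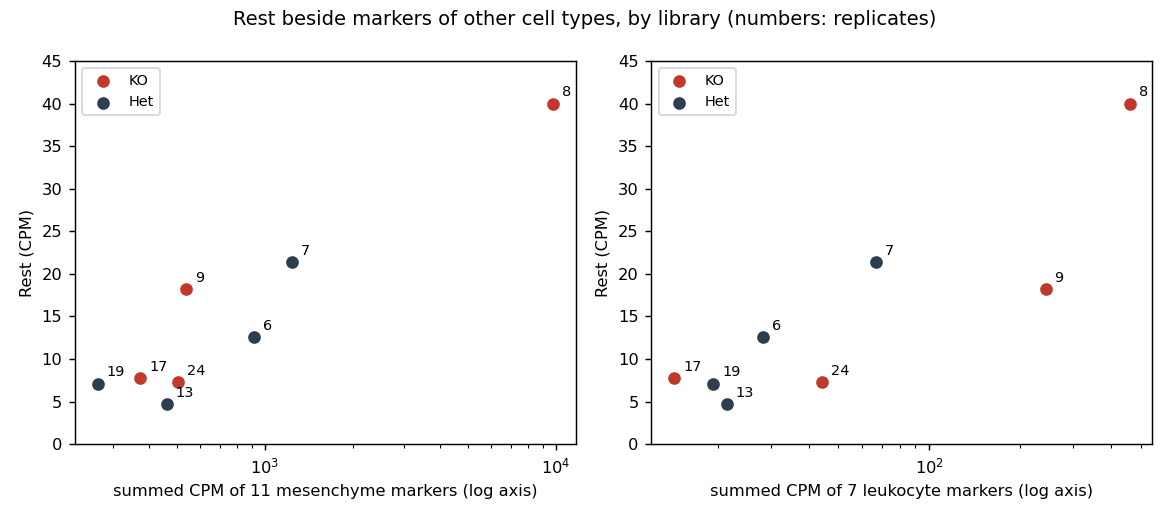
Rest in CPM against the summed CPM of 11 mesenchyme markers and of 7 leukocyte markers (horizontal axes are logarithmic), 1 point per library with its replicate number, KO in red and Het in dark blue. KO replicate 8 is at the upper right in both panels, at 40.0 CPM of Rest, and the libraries numbered 13 to 24 are at or below 7.77 CPM.

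Of 5 genes that act on REST itself, edgeR called 0, with 1 lower and 1 higher in KO at an unadjusted p under 0.05. Of all 14116 genes tested, 819 were lower and 897 higher at that level. Srrm4, the neuronal splicing factor that makes a truncated REST, averaged 10.8 ± 5.17 CPM in KO and 25.4 CPM in Het, with no overlap (log2 fold change −1.23, SE 0.35, adjusted p = 0.159, edgeR). It was called lower by DESeq2 (adjusted p = 0.0250) and by limma-voom with quality weights (adjusted p = 0.0457), and its adjusted p over all alternatives ran from 0.0250 to 0.497. Over all genes DESeq2 called 293 lower and the quality-weighted fit 304. Btrc, part of the ubiquitin ligase that turns REST over, differed by 0.58 on the log2 scale (SE 0.18, edgeR adjusted p = 0.210). Btrc was called higher by quality-weighted limma-voom, as were 196 of all genes. The ligase and deubiquitinase genes Fbxw11, Usp7 and Usp15 lay between −0.16 and 0.01. Of the 19 corepressor genes that REST and INSM1 recruit, 0 were called by edgeR, DESeq2 or either limma-voom fit. At an unadjusted p under 0.05, 3 were higher in KO and 0 lower, beside the 897 and 819 of all genes. The median log2 fold change of the 19 was 0.11 (0.20 without KO replicate 8), against 0.03 for all genes. Ctdsp2, a phosphatase of REST complexes, averaged 267 ± 65.0 CPM in KO and 191 CPM in Het, without overlap (log2 fold change 0.48, SE 0.16, adjusted p = 0.255, edgeR). It was highest in KO replicate 8, at 364 CPM, and had 0.29 without that library (adjusted p = 0.285). Among the core subunits, with adjusted p from 0.452 up, Kdm1a had −0.15, Rcor1 0.31, Hdac1 0.03, Hdac2 0.01 and Sin3a −0.02.

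Of 41 tested genes known as REST targets in neurons or neuroendocrine cells, edgeR called 1 lower in KO and none higher. Of all genes tested, 0.68% were called lower and 0.34% higher. DESeq2 called 4 lower, limma-voom 2 and its quality-weighted form 3, and none higher. Over all genes these fits called 293, 120 and 304 lower and 227, 50 and 196 higher, in that order. At an unadjusted p under 0.05 there were 6 lower and 1 higher, where 819 of the 14116 genes tested were lower and 897 higher. The 1 higher was Cdk5r1 (log2 fold change 0.85, adjusted p = 0.351, edgeR). The median log2 fold change of the 41 was −0.08 with 25 below 0, and 0.04 with 16 below 0 without KO replicate 8. Syp, which encodes the vesicle protein synaptophysin, averaged 75.8 ± 9.51 CPM in KO and 139 CPM in Het (log2 fold change −0.87, SE 0.17, adjusted p = 0.0405, edgeR). Syp lost its call without KO replicates 9, 17 or 24, without any 1 Het library (adjusted p up to 0.120), with acinar (0.0737) or Y-linked genes (0.181) as a covariate, and in libraries 6 to 9 alone (0.468). The calcium-binding protein gene Calb1 (−2.35, adjusted p = 0.0606) and Ptprn (−1.23, adjusted p = 0.102), a granule membrane protein gene, did not pass with all libraries. Both were called lower without KO replicate 8, where 3 of the 41 and 1.31% of all genes were, and 28 of the 41 were lowest in that library. The granule genes Scg3 (−0.54, adjusted p = 0.230, no overlap), Vgf (−1.65, adjusted p = 0.336), Chgb (−0.61, adjusted p = 0.432), Chga (−0.32, adjusted p = 0.656) and Scg2 (−0.12, adjusted p = 0.854) did not pass. Without KO replicate 8 these had −0.44, −1.36, −0.39, −0.14 and 0.0011 in that order.

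Of 5 genes known to be repressed by MYT factors, 0 were called by edgeR (0 also at an unadjusted p under 0.05 and by DESeq2 or either limma-voom fit). The smallest p was that of Sox9, a duct and progenitor factor, with 199 ± 11.8 CPM in KO and 145 CPM in Het (log2 fold change 0.45, SE 0.21, adjusted p = 0.415). It was called higher in the libraries numbered 13 to 24 alone (0.79, adjusted p = 0.0450), where edgeR called 428 of 14084 genes. In libraries 6 to 9 alone Sox9 had 0.14 (adjusted p = 0.897). Both ranges were chosen after seeing the data. Hes1 (0.38), the Notch effector, Slc16a1 (1.25), a lactate transporter gene, and Ldha (0.52) were highest in KO replicate 8, and without it had −0.35, 0.21 and −0.03. Syt4, the 1 gene of the 5 below 0, had −0.30, or −0.20 without KO replicate 8. The median log2 fold change of the 5 was 0.45, or −0.03 with 3 below 0 without KO replicate 8. Of 13 tested relatives and partners of RUNX1T1, 0 were called by edgeR, DESeq2 or either limma-voom fit, and 1, Runx1, had an unadjusted p under 0.05. Runx1 averaged 20.1 ± 25.6 CPM in KO and 3.83 CPM in Het (log2 fold change 2.38, SE 0.99, adjusted p = 0.366, edgeR), was highest in KO replicate 8, and had 0.99 without it. The close paralogs Cbfa2t2 (−0.27) and Cbfa2t3 (−0.25, or −0.0818 without KO replicate 8) did not pass, at adjusted p of 0.474 and 0.745. Of 9 other zinc-finger repressors with a SNAG domain 4 were tested, none was called by any of these tools or had an unadjusted p under 0.05, and Snai2 had the smallest p (log2 fold change 1.002, adjusted p = 0.670, or −0.62 without KO replicate 8).

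Of 14 islet factors known to act upstream of or with INSM1 and MYT1, edgeR called 1 lower, Neurod1 itself, and none higher. DESeq2 called 2 lower, limma-voom 1 lower, and its quality-weighted form 1 lower and 1 higher. Over all genes these fits called 293, 120 and 304 lower and 227, 50 and 196 higher, in that order. The median log2 fold change of the 14 was −0.18, or 0.03 without KO replicate 8. Neurog3, the precursor factor upstream of Myt1 and Insm1, differed by 0.29 on the log2 scale (SE 0.41, edgeR adjusted p = 0.824), or by 0.59 without KO replicate 8 (adjusted p = 0.174). Foxa2, which shares sites with INSM1, differed by 0.13 (SE 0.33, adjusted p = 0.911), or by 0.39 without KO replicate 8 (adjusted p = 0.378). Isl1 (−0.57, adjusted p = 0.167) and Sox4 (0.80, adjusted p = 0.199) had the next smallest p, and Sox4 was called higher without KO replicate 8 (0.99, adjusted p = 0.0183). For 13 of the 14 the lowest value was in KO replicate 8.

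**Figure D5:**
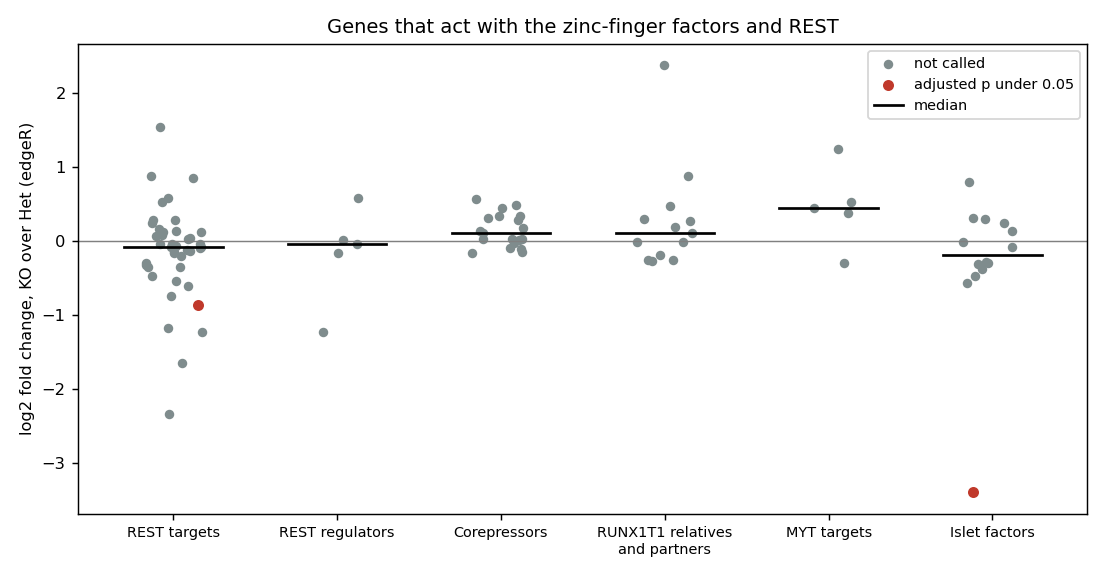
Log2 fold changes of KO over Het from edgeR for 6 lists of genes that act with these factors. Each point is a gene, red where its adjusted p is under 0.05, and black lines are list medians. The red points are Syp at −0.87 among the REST targets and Neurod1 at −3.40 among the islet factors.

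The genes with the most similar pattern over the 8 libraries were taken from the 10405 tested genes that averaged 8 CPM or more, by the smallest root mean square difference in centred log2 CPM. These differences include KO replicate 8 and were not computed without it. For Myt1 they were 1110012J17Rik (0.10), the vitamin D receptor gene Vdr (0.12) and the calcium channel subunit gene Cacnb2 (0.13), where the median over all candidates was 0.60. For St18 they were 1110012J17Rik again (0.10), Rap1gap2 (0.12) and the cadherin gene Celsr3 (0.12), with a median of 0.54. For Myt1l they were Ptprn (0.18), the somatostatin receptor gene Sstr3 (0.21) and the nucleoside transporter gene Slc29a4 (0.23), with a median of 0.81. For Insm1 they were Tpst2 (0.10), Pla2g12a (0.16) and Abhd15 (0.16), and for Runx1t1 Papolg (0.06), Ndfip1 (0.07) and Glud1 (0.07), with medians of 0.61 and 0.37. Rest had no pattern as close: Stk10 (0.32), Ndrg2 (0.35) and Birc3 (0.35), with a median of 1.005. None of these genes was called by edgeR, at adjusted p of 0.0865 or more.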

How the data were processed

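RNA from Neurog3-Cre lineage cells sorted from pancreata of mice at embryonic day 17 was amplified from 2.315 ng per sample with a NuGEN Ovation V2 kit and sequenced as single-end reads, per the labels' protocols. That kit keeps no strand, and amplified copies count as reads. The authors deposited raw counts, whole numbers for each gene symbol. The submitters' processing notes name build mm9, TopHat2 2.1.0, bcl2fastq 1.8.4, DESeq and Cufflinks 2.0.2. Which tool and annotation gave the counts is not given in the sources used here. In the authors' table of their own comparison, signal is a mean of normalized counts per group, beside the authors' log2 fold change, p-values and adjusted p-values, per the file headers.

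Libraries were assigned by their titles, whose numbers name the replicates. EdgeR 4.0.16 (R 4.3.3) tested 14116 genes kept by filterByExpr (minimum count 10, total 15), with TMM scaling, no covariate, two-sided quasi-likelihood F tests and Benjamini-Hochberg adjustment over all tested genes. The common dispersion was 0.181. SEs are the log2 fold change over the root of F, and 95% intervals use edgeR's total degrees of freedom. DESeq2 1.42.0 and limma 3.58.1 were alternatives, with median-ratio and total-count scaling, other filters, mesenchyme, acinar and Y-linked covariates, each library left out, and, chosen after seeing the data, a term for library number (6 to 9 against 13 to 24) and each number range alone. The method was tested on simulated data. Levels per kilobase use the longest coding transcript in GENCODE M21 (GRCm38), for lengths only. At these depths 1 CPM stands for about 10 reads or more, and counting error is largest for Insm2 and Rest.

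The members and gene lists were chosen with earlier results of these data known. The rule for named genes took all 7 members, Neurod1, up to 3 called genes with the smallest p per list (or the 1 with the smallest p), and the 3 genes nearest in pattern (log2 CPM, prior count 2). Other list genes are examples chosen after their values were seen. The 14 lists included 7 of cell-type markers. No 2 libraries held the same values.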

Additional observations from a re-analysis of the deposited data

Results flagged for a closer look

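A pair of values stood far from the others of their group of 4. St18 in KO replicate 8 was at 110 CPM, where the other KO libraries held 265 to 271 CPM, so that the gap took 0.958 of the whole range (Dixon's 95% limit for 4 samples is 0.829). That library also had the highest mesenchyme and leukocyte marker sums, and their part in the value was not tested. Neurod1 in Het replicate 19 was at 210 CPM, where the other Het libraries held 133 to 141 CPM, a gap of 0.896 of the range. Chance flags about 1 in 20 groups, and 16 groups were looked at.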

How the results depend on the processing

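No paired analysis was possible because KO and Het share no replicate number. The 5 negative log2 fold changes of the tested genes kept their sign under all 21 alternatives: Myt1 ran from −0.58 to −0.13, Myt1l from −1.31 to −0.74, St18 from −0.43 to −0.06, Insm1 from −0.92 to −0.15 and Runx1t1 from −0.37 to −0.23. Rest ran from −0.07 to 1.17 and changed sign without KO replicate 8 (−0.0681) and with the Y-linked covariate (−0.0315). The number of the 7 genes called was 0 with all 8 libraries and 1, Myt1l, with the mesenchyme covariate and with libraries 13 to 24 alone, and 0 under the other 19. The count over all genes, 144, was 520 with DESeq2, 500 with quality-weighted limma-voom, 559 with the mesenchyme, 68 with the acinar and 28 with the Y-linked covariate, 261 with the library-number term, 428 in libraries 13 to 24 and 2 in libraries 6 to 9. It ran from 29 to 285 with 1 library left out. The count over the 168 listed genes, 7, was in the same order 16, 13, 13, 4, 1, 12, 12 and 1, and ran from 1 to 10 with 1 library left out. Neurod1 lost its call with the Y-linked covariate (adjusted p = 0.0729), in libraries 6 to 9 (0.360), without KO replicate 9 (0.0732) and without any 1 Het library (up to 0.0651). Of the other named genes, Snai2 changed sign by limma-voom with quality weights (−0.48) and with the mesenchyme covariate (−0.33). Snai2 also changed sign in libraries 13 to 24 (−0.0707) and without KO replicate 8 (−0.62). Its highest values were 1.46 in libraries 6 to 9 and 1.36 without KO replicate 9. The acinar gene Cela1 (0.44) ran from −0.0175 without KO replicate 9 to 0.796 with the Y-linked covariate. Without KO replicate 8 Cela1 had 0.641. The cause was not tested. With 4 libraries a group, the intervals of Rest, Myt1l, Myt1, Insm1 and St18 are wide, and Insm2 is limited by depth.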

Other observations

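In both genotypes the libraries with the lower numbers had more Rest and less Myt1 and Myt1l on average, and KO replicate 8 carried much of this in KO. Rest averaged 29.1 CPM in KO replicates 8 and 9 (18.2 CPM in KO replicate 9 alone) and 7.52 CPM in KO replicates 17 and 24, and in Het 16.99 CPM in replicates 6 and 7 and 5.89 CPM in replicates 13 and 19. Every library numbered 6 to 9 had more Rest than every library numbered 13 to 24. Myt1 averaged 142 CPM in KO replicates 8 and 9 (201 CPM in KO replicate 9 alone) and 239 CPM in KO replicates 17 and 24, and in Het 210 CPM in replicates 6 and 7 and 284 CPM in replicates 13 and 19. Myt1l averaged 12.1 (16.7 in KO replicate 9 alone) and 24.4 CPM in the same pairs of KO libraries, and 29.5 and 42.9 CPM in those of Het. Myt1l was lower in KO in both ranges, at a log2 fold change of −1.31 (SE 0.50) in libraries 6 to 9 and −0.82 (SE 0.20) in libraries 13 to 24, each with 2 libraries per group. The labels do not say what the numbers stand for.

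Markers outside the lists of the factors' partners that were called were the duct gene Cftr (log2 fold change 2.23, adjusted p = 0.0426, edgeR) and the endothelial claudin gene Cldn5 (3.88, adjusted p = 0.0311), both higher in KO, and the hormone genes Ins1 (−3.64), Ins2 (−1.63) and Gcg (−1.04), all lower. Cldn5 was near the floor, with means of 3.22 CPM in KO and 0.204 CPM in Het. It was the 1 gene called of 5 endothelial markers tested, of which Esam (−0.99) was below 0. Of the 21 alternatives, Cftr lost its call in 9 (adjusted p up to 0.600), Cldn5 in 12 (up to 0.524), Gcg in 12 (up to 0.314), Ins2 in 8 (up to 0.1003) and Ins1 in 0. These include leaving out KO replicate 9 or 17 or Het replicate 6, 13 or 19 for each of the first 4 genes, Het replicate 7 for Cldn5, Gcg and Ins2, and KO replicate 24 for Cftr and Cldn5. No acinar, mesenchyme, leukocyte, or neural and glial marker was called by edgeR. At an unadjusted p under 0.05 there were 2 mesenchyme and 2 leukocyte markers, all higher in KO, and DESeq2 called 1 of each. Over all genes DESeq2 called 227 higher. The smallest p belonged to Cela1 (0.44), Pdgfrb (2.05), Csf1r (2.76) and Sox10 (−1.06), at adjusted p of 0.168 or more, and Pdgfrb had 0.65 without KO replicate 8.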
